A study of Mus musculus with 23 samples.

Results

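Schwann cells (SCs) and macrophages sorted from the same kind of wild-type mouse nerve tissue were compared gene by gene, on 3 arrays of SCs and 3 arrays of macrophages, which are 6 of the 23 arrays of the series. The tissue was dorsal root ganglia (DRG) with, by the study's methods, the nerve roots and nerves attached to them, taken from 1-month-old mice and pooled from several animals for a sort. The wild-type mice are labelled Nf1+/+, and the methods describe them as Nf1fl/fl mice without a Cre transgene, so that their floxed Nf1 alleles were intact. The strain is given as a mix of C57BL/6 and BALB/c in the labels and as C57Bl/6 in the methods. SCs were taken as cells positive for p75, the neurotrophin receptor encoded by Ngfr, and macrophages as cells positive for F4/80, encoded by Adgre1, and for CD11b, encoded by Itgam. Myelinating SCs of adult nerve carry little p75, so the sort favors nonmyelinating and immature cells. The tissue was digested with enzymes for hours at body temperature before the cells were sorted, and any RNA change during that time is part of both profiles. For the mutant nerve used at the end, SCs (3 arrays) and macrophages (5 arrays) came from 1-month-old Nf1fl/fl;DhhCre mice, in which the Dhh promoter drives Cre in the SC lineage. RNA was hybridized to Affymetrix Mouse Gene 2.0 ST arrays, and values are on the log2 scale, so that a difference of 1 is a 2-fold change.

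SCs are the glia of peripheral nerve. They descend from the neural crest, wrap single large axons in myelin or bundle small axons without it, surround themselves with a basal lamina, and supply axons with trophic factors. Macrophages are phagocytes of hematopoietic origin that reside in nerve in the epineurium and endoneurium, clear debris, sense damage and microbes through pattern recognition receptors, and depend for survival on signals through the receptor CSF1R. Both cell types secrete and receive cytokines, so that their transcripts define much of the signaling milieu of a nerve before a neurofibroma forms.

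Values are given array by array in the order SC 1, 2, 3 and macrophage 4, 5, 6, differences are SC minus macrophage on the log2 scale, and ± after a difference is its standard error. The sort could be read on the arrays for macrophages. Adgre1 had 2.62 to 4.12 in SCs, against 10.06, 9.33 and 9.76 in macrophages, an 86.5-fold difference (-6.44 ± 0.35, adjusted p = 1.59e-06 by limma), and no SC array came near any macrophage array. Itgam had 2.93, 2.66 and 3.21 in SCs, against 7.56, 6.53 and 7.33 in macrophages (-4.21 ± 0.27, adjusted p = 4.22e-06). Ngfr, the gene of the p75 protein used to sort SCs, had 5.40, 4.69 and 4.85 in SCs, against 4.28, 3.90 and 4.63 in macrophages, and this difference did not pass the threshold of an adjusted p below 0.05 with more than a 2-fold change (0.71 ± 0.25, adjusted p = 0.0689), although no SC array overlapped a macrophage array, which held for 18.8% of all genes with SCs higher and for 19.9% with macrophages higher. Nf1 itself had 7.24, 7.27 and 7.16 in SCs, against 6.85, 6.30 and 6.38 in macrophages, a difference of 0.71 ± 0.19 that passed the adjusted p (0.0249) and fell short of 2-fold.

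The arrays of a group resembled each other far more than those of the other group. Pearson correlations over all genes lay between 0.970 and 0.974 among SC arrays, between 0.969 and 0.980 among macrophage arrays, and between 0.861 and 0.888 across cell types. Array medians were 3.74 to 3.79 in SCs and 3.83 to 3.86 in macrophages. By their labels SC 1 belongs to batch 1 and the other 5 arrays to batch 2, so the comparison can be made within batch 2. Some transcripts separated arrays within a group. Of 9 measured seminal vesicle genes, all secretory products of a male accessory gland, the mean value was 2.52, 8.03 and 3.64 in SCs, against 2.47, 5.47 and 8.47 in macrophages, which put SC 2 with macrophages 5 and 6. Xist, expressed from the inactive X chromosome of females, had 9.50, 8.63 and 4.50 in SCs, against 10.30, 9.12 and 8.16 in macrophages, and the Y-linked Eif2s3y had 3.00, 4.83 and 5.89 in SCs, against 3.13, 6.26 and 6.41 in macrophages, which are low on the arrays where Xist was highest. None of these genes differed between cell types by the test, and the overall counts are also given without macrophages 5 and 6. Of the list counts given below, those that moved by over 1.5 times with 1 array, or macrophages 5 and 6, left out were counts of 3 or fewer genes.

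Of 22180 genes tested, 3074 (13.9%) differed between SCs and macrophages past that threshold (limma, Benjamini-Hochberg), and such genes are referred to as called. 1961 genes (8.84%) were higher in SCs and 1113 (5.02%) were higher in macrophages, as the plot of mean values shows. SC and macrophage arrays overlapped for 9 of these SC genes and 9 of these macrophage genes. Separation of the arrays, where given below for called genes, therefore adds little to the call. SC genes were more numerous, and macrophage genes differed more. Among called genes, 183 were higher in SCs by more than 3 log2 units and 228 were higher in macrophages by that much. Beyond 5 units there were 0 SC genes and 66 macrophage genes, and the extremes were 4.96 for Ptprz1 and -7.80 for Lilrb4a. The medians over the called genes nevertheless lay close in size, at 1.64 for SC genes and -1.62 for macrophage genes, and the median over all genes was -0.06. Leaving out 1 array at a time left 1882 to 1994 SC genes and 1088 to 1149 macrophage genes. Batch 2 alone, which is the same fit as the one without SC 1, gave 1949 and 1088. Without macrophages 5 and 6 the counts were 1712 and 1201, where the lone macrophage array is assumed to vary like the SC arrays. SC 1 and macrophage 4, the arrays with the lowest seminal vesicle values, differed by more than 2-fold in the same direction for 1745 of the 1961 SC genes and 1012 of the 1113 macrophage genes, a comparison of 2 arrays with no test. The labels name separate samples and not how many animals each came from, so p-values measure the spread between these samples, and an exact permutation test of 3 arrays against 3 could not go below p = 0.1. In bulk samples like these, fewer cells of a type and less RNA per cell cannot be told apart.

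**Figure D1:**
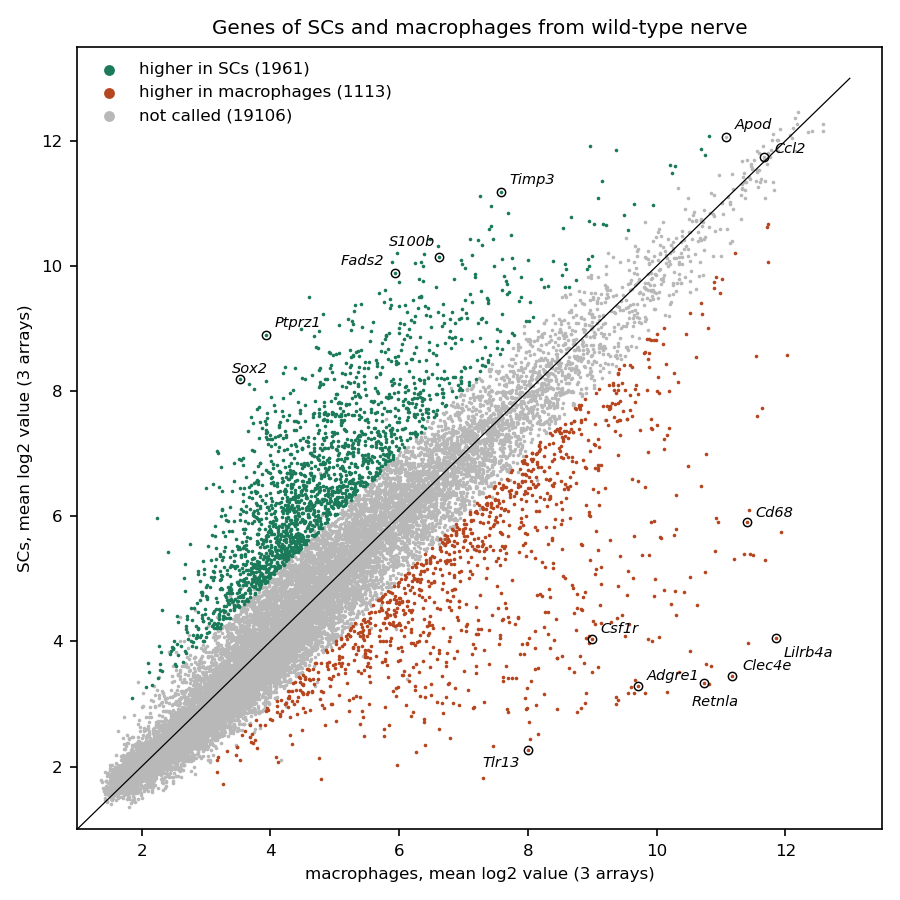
Mean log2 value of each of 22180 genes in macrophages (x axis, 3 arrays) and SCs (y axis, 3 arrays), with the line of equal values. The 1961 genes called higher in SCs are green, the 1113 called higher in macrophages are orange and the 19106 not called are grey. The orange points reach farther from the line than the green ones, down to Lilrb4a at -7.80, while Ccl2 lies near it.

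The largest difference among genes called higher in SCs was that of Ptprz1, a receptor phosphatase that binds pleiotrophin, which had 9.01, 8.96 and 8.71 in SCs, against 3.31, 3.95 and 4.54 in macrophages, a 31.1-fold difference (4.96 ± 0.28, adjusted p = 2.04e-06). Its highest macrophage array lay more than 4 units under its lowest SC array. Slc35f1, a putative solute carrier, had 9.75, 9.53 and 9.22 in SCs, against 4.17, 5.19 and 4.45 in macrophages (4.90 ± 0.27, adjusted p = 1.66e-06). Scn7a, a sodium channel of nonmyelinating glia, had 9.68, 8.68 and 8.61 in SCs, against 4.48, 4.30 and 4.64 in macrophages (4.52 ± 0.28, adjusted p = 3.15e-06). Adhesion molecules of the immunoglobulin and cadherin families stood beside them. Chl1, a relative of L1, was 19.4-fold higher, and Ncam1, the neural cell adhesion molecule, was 21.4-fold higher. Sostdc1, a secreted antagonist of BMP and Wnt signaling, had 10.15, 10.33 and 10.13 in SCs, against 5.49, 6.19 and 6.23 in macrophages (4.23 ± 0.22, adjusted p = 1.38e-06), with SC arrays close together. Col28a1, a collagen of nonmyelinating SC surfaces, was higher by 4.21 ± 0.21 and Gpm6b, a membrane proteolipid of neural cells, by 4.17 ± 0.35. S1pr3, a sphingosine 1-phosphate receptor, had 8.87, 9.24 and 8.76 in SCs, against 3.43, 5.53 and 5.29 in macrophages, where macrophage 4 was lowest, and its difference of 4.21 became 3.54 without that array.

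Among the genes with the largest differences in macrophages, Clec4e, a C-type lectin that senses mycobacterial glycolipid and dead cells, had 3.36, 3.47 and 3.50 in SCs, against 10.97, 11.28 and 11.28 in macrophages, a 213-fold difference (-7.73 ± 0.17, adjusted p = 2.65e-08). Both groups were tight, and over 7 log2 units lay between them. Retnla, an alternatively activated macrophage product, had 3.56, 3.30 and 3.14 in SCs, against 10.87, 10.66 and 10.69 in macrophages (-7.41 ± 0.18, adjusted p = 2.96e-08). Ms4a7, a tetraspanning protein of mature macrophages, was higher in macrophages by 150.3-fold (-7.23 ± 0.19, adjusted p = 3.27e-08). Ifnb1, which encodes interferon beta, had 2.82, 4.65 and 3.46 in SCs, against 10.47, 10.88 and 10.96 in macrophages (-7.12 ± 0.39, adjusted p = 1.61e-06). Lilrb4a, an inhibitory receptor, had 4.09, 2.53 and 5.54 in SCs, against 11.79, 11.86 and 11.89 in macrophages. Its macrophage arrays lay close together while its SC arrays spread over 3 units, so its difference of -7.80 ± 0.58 (9.12e-06 as adjusted p) became -7.04 without SC 2 and -8.54 without SC 3. Ppbp, a platelet and macrophage chemokine, was -7.44 ± 0.50 and shifted to -8.09 without SC 3 and to -6.85 without SC 2.

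**Figure D2:**
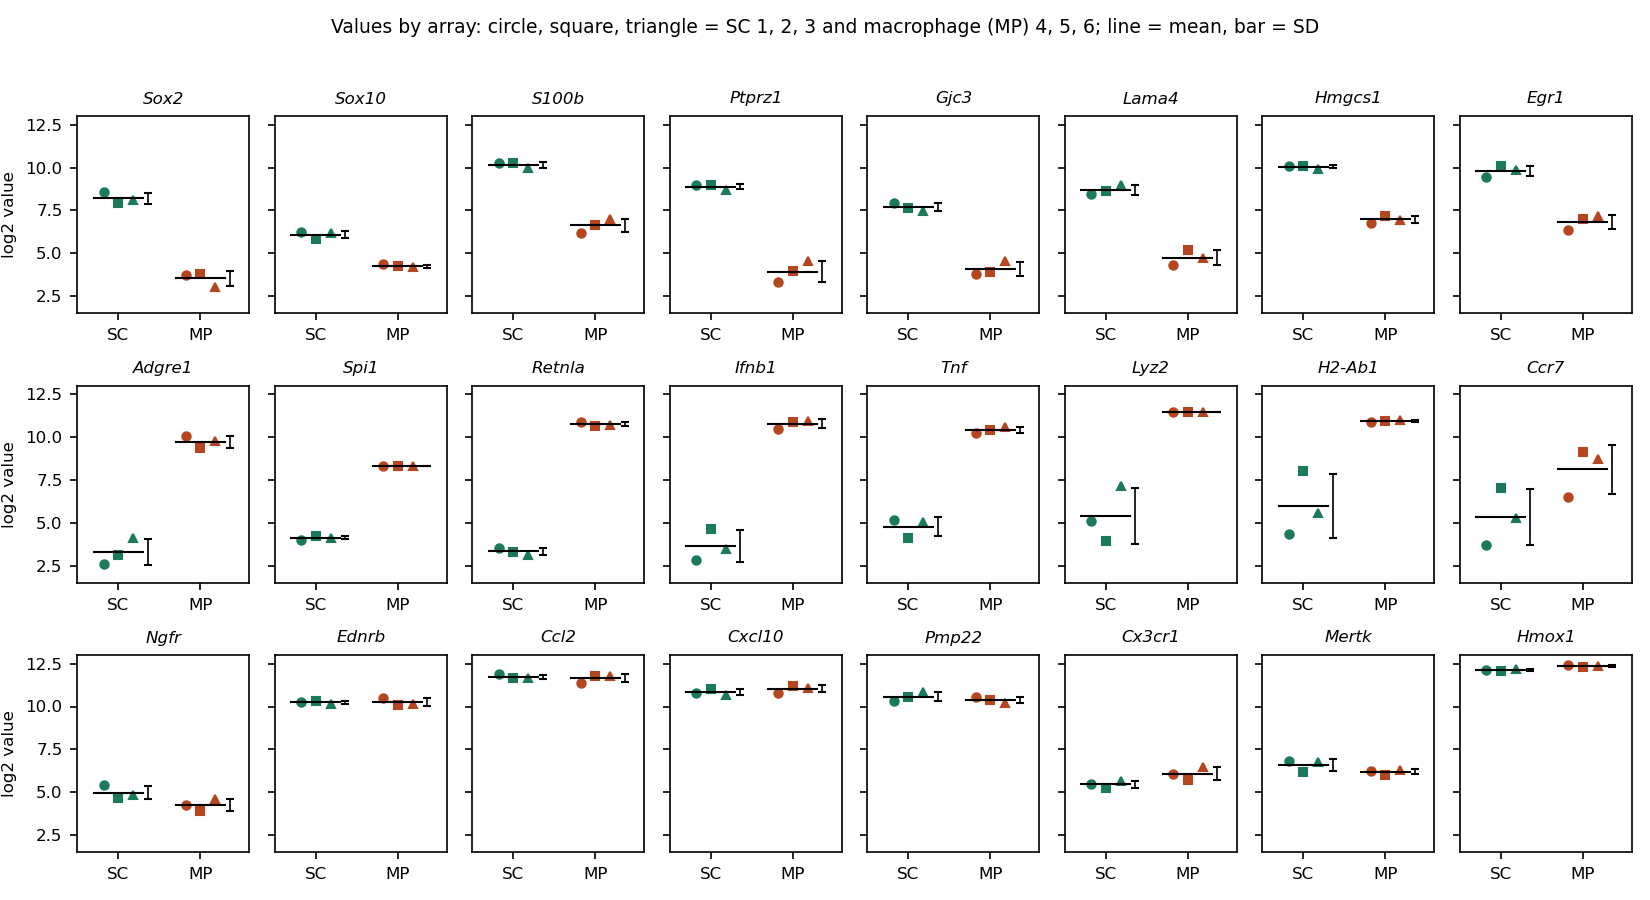
Log2 value of 24 genes on each array, with SCs left and macrophages (MP) right in every panel. Symbols mark the 3 arrays of a group, the line the mean and the bar the SD. The top row holds genes called higher in SCs, the middle row genes called higher in macrophages, among which Lyz2, H2-Ab1 and Ccr7 spread on the SC arrays, and the bottom row genes that were not called.

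Transcription factors of the SC lineage were higher in SCs for 9 of 15 measured members and in macrophages for 0 (median 1.61), against 8.84% and 5.02% of all genes. Without SC 1 the macrophage count was 1. Sox2, a pluripotency and progenitor factor that holds SCs in an immature state, led with 8.57, 7.94 and 8.08 in SCs, against 3.76, 3.82 and 3.02 in macrophages, a 25.3-fold difference (4.66 ± 0.26, adjusted p = 1.74e-06). The neural crest factors Tfap2a (7.01-fold) and Foxd3 (4.73-fold) and the ETS factors Etv1 (4.5-fold) and Etv5 (3.06-fold) followed. Jun, which directs the repair program of injured SCs, had 9.95, 10.21 and 10.14 in SCs, against 7.92, 8.11 and 7.95 in macrophages (2.10 ± 0.17, adjusted p = 1.59e-05). Sox10, required throughout the glial lineage, had a smaller difference, 1.83 ± 0.18, and Pou3f1, which drives promyelinating cells onward, one of 1.41 ± 0.25. Egr2, the master regulator of myelination, had 7.95, 8.19 and 7.99 in SCs, against 6.78, 7.38 and 7.22 in macrophages. Its arrays did not overlap, but 0.92 ± 0.20 fell short of 2-fold (adjusted p = 0.00825). Pax3, a factor of the crest and of immature SCs, was low on all 6 arrays, 3.11, 2.67 and 3.13 in SCs, against 2.64, 3.11 and 2.94 in macrophages.

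Genes of nonmyelinating and immature SCs were higher in SCs for 16 of 20 members (median 2.50), and genes of peripheral myelin for 14 of 18 (median 1.58), with 0 of either list higher in macrophages. S100b, a calcium-binding protein of all SCs, was 11.5-fold higher, Matn2, a matrix adaptor of peripheral glia, 10.5-fold, Mia, a secreted protein of the melanocyte lineage and of SCs, 9.5-fold, and Sema3b, a semaphorin, 8.38-fold. Dhh, the hedgehog ligand through which SCs organize the perineurium and whose promoter drives Cre in the mutant, had 7.48, 6.90 and 6.42 in SCs, against 4.45, 5.33 and 4.94 in macrophages (2.03 ± 0.30, adjusted p = 0.000762). Gap43 (1.91 ± 0.32), Nes (1.70 ± 0.18) and Gfap (1.31 ± 0.31), which mark immature, nonmyelinating and reactive SCs, differed less, and Gfap lost its call without SC 1 or macrophage 6 and with the label batch as a term (1.13), an alternative fitted over the 14 arrays of 1-month-old wild-type and mutant mice. Fabp7, a lipid-binding protein that the study names as a marker of immature SCs and of satellite cells, reached 11.44, 11.42 and 11.22 in SCs. It had 7.78, 10.00 and 9.65 in macrophages, and its difference of 2.22 became 1.53 without macrophage 4, the lowest array. The part of satellite cells of the DRG in the SC values was not tested. Among myelin genes Gjc3, a gap junction protein of SCs, led with 7.94, 7.64 and 7.47 in SCs, against 3.77, 3.92 and 4.55 in macrophages, a 12.1-fold difference (3.60 ± 0.24, adjusted p = 4.47e-06), and Mal, a proteolipid of compact myelin, was 7.77-fold higher. Mag, the adhesion molecule of the innermost myelin wrap, had 4.85, 5.03 and 5.21 in SCs, against 2.59, 3.37 and 3.27 in macrophages (1.95 ± 0.23, adjusted p = 0.00018). Mbp, the basic protein of compact myelin, had 7.71, 7.40 and 7.59 in SCs, against 5.91, 6.01 and 6.08 in macrophages (1.57 ± 0.17, adjusted p = 0.000102). These myelin genes separated all SC from all macrophage arrays. Pmp22, a tetraspan protein whose gene dose underlies demyelinating neuropathy, was about equal, 10.30, 10.55 and 10.83 in SCs, against 10.56, 10.38 and 10.22 in macrophages (0.17 ± 0.20, adjusted p = 0.594). Macrophage 5 carried more of some myelin lipid genes than macrophages 4 and 6. Pmp2, the myelin fatty acid carrier, had 7.04, 6.83 and 7.08 in SCs, against 4.09, 6.45 and 3.72 in macrophages, a difference of 2.24 that became 3.08 without macrophage 5 and lost its call without SC 1, SC 3, macrophage 4 or macrophage 6. Ugt8a, which makes galactocerebroside, had 7.99, 7.47 and 8.29 in SCs, against 4.90, 6.57 and 4.68 in macrophages, and 2.53 became 3.13 without macrophage 5.

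The basal lamina and its receptors formed one of the fullest SC groups, with 19 of 21 members higher in SCs and 0 in macrophages (median 2.42). Laminins, the trimers on which SCs anchor, included Lama4 with 8.46, 8.62 and 9.00 in SCs, against 4.34, 5.20 and 4.70 in macrophages (15.4-fold, 3.95 ± 0.25, adjusted p = 3.51e-06), and the log2 differences of Lamb1, Lama2 and Lamc1 were 3.58, 2.95 and 1.87. Nid1, which links laminin to collagen IV, was 8.26-fold higher, Hspg2, the proteoglycan perlecan, 5.35-fold, and Col4a1, a collagen IV chain, 7.38-fold. On the receptor side, Dag1, which encodes dystroglycan, had 8.03, 8.26 and 8.15 in SCs, against 5.31, 5.46 and 5.60 in macrophages (2.69 ± 0.17, adjusted p = 4.13e-06), and Itga6, a laminin-binding integrin chain, was 6.25-fold higher. Itgb1, the integrin beta chain shared by many cells, (0.50 ± 0.19, adjusted p = 0.0948) and Agrn (0.44 ± 0.21, adjusted p = 0.17) were the members that were not called.

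Markers of other nerve cells moved with the SC group. Fibroblast markers were higher in SCs for 10 of 12 members, endothelial markers for 10 of 12, pericyte and smooth muscle markers for 9 of 12 and neuronal markers for 5 of 13, and none of these lists had a member called higher in macrophages. The mean value of the fibroblast list ranged from 7.88 to 8.33 on the SC arrays and from 6.17 to 6.77 on the macrophage arrays, the endothelial list from 6.03 to 6.68 and from 4.34 to 5.12, the pericyte list from 6.18 to 6.85 and from 4.26 to 5.29, and the neuronal list from 5.10 to 5.98 and from 4.05 to 4.69. Pdgfra, a fibroblast receptor, had 7.41, 6.78 and 6.93 in SCs, against 4.69, 3.95 and 4.61 in macrophages (2.63 ± 0.25, adjusted p = 4.3e-05). Cdh5, the cadherin of endothelial junctions, had 8.35, 8.78 and 9.38 in SCs, against 4.97, 7.15 and 6.10 in macrophages (2.76 ± 0.47, adjusted p = 0.00189). Rgs5, a pericyte marker, had 10.23, 10.71 and 10.96 in SCs, against 6.27, 8.21 and 7.78 in macrophages (3.21 ± 0.43, adjusted p = 0.000389). All SC arrays exceeded all macrophage arrays for these genes, and macrophage 5 was the highest macrophage array for Cdh5 and Rgs5. Col1a2, a collagen I chain, was high in both, 11.62, 11.62 and 11.57 in SCs, against 10.12, 10.64 and 10.11 in macrophages, with a call that was lost in fits of those 14 arrays and of 21 arrays with 7-month-old cells, and with the label batch as a term (1.36 against 1.31). The largest difference in the neuronal list was 2.62, and 8 members were not called. Uchl1 (2.05), Nefl (1.87) and Tubb3 (1.62) were among the 5 called higher in SCs. Uchl1 lost its call when all its transcript clusters were averaged (0.97). Nefl (1.81) and Tubb3 (1.58) lost theirs with the label batch as a term, and Tubb3 also in the fit of those 14 arrays. Rbfox3 and Isl1, which define mature neurons, were not called and stayed under 5 on all 6 arrays. Dpt, a matrix protein of fibroblasts, had 8.80, 9.20 and 7.56 in SCs, against 6.27, 7.59 and 4.74 in macrophages, and 2.32 became 1.59 without macrophage 6 and 3.02 without macrophage 5, with the call lost without SC 1, SC 2, macrophage 4 or macrophage 6 and with the label batch as a term. Emcn, an endothelial sialomucin (3.05), and Acta2, smooth muscle actin (2.18), became 3.69 and 2.84 without macrophage 5, and Emcn 2.42 without macrophage 4. By the study's account the sorted p75 cells lacked EGFR protein, which fibroblasts carry, and Egfr RNA had 7.77, 7.54 and 7.61 in SCs, against 6.12, 5.70 and 5.39 in macrophages (1.90 ± 0.21, adjusted p = 0.00012). The part of these cells in the SC differences for laminins, collagens, semaphorins, proteases and growth factor receptors was not tested. Mast cell markers were called in 1 of 10 members, near the 8.84% of all genes called higher in SCs. That member was Kit, with 7.84, 7.67 and 7.12 in SCs, against 4.34, 5.33 and 4.99 in macrophages. Cpa3, a protease that defines mast cells, had 2.59, 2.07 and 4.27 in SCs, against 2.70, 2.41 and 2.58 in macrophages, raised on SC 3.

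**Figure D3:**
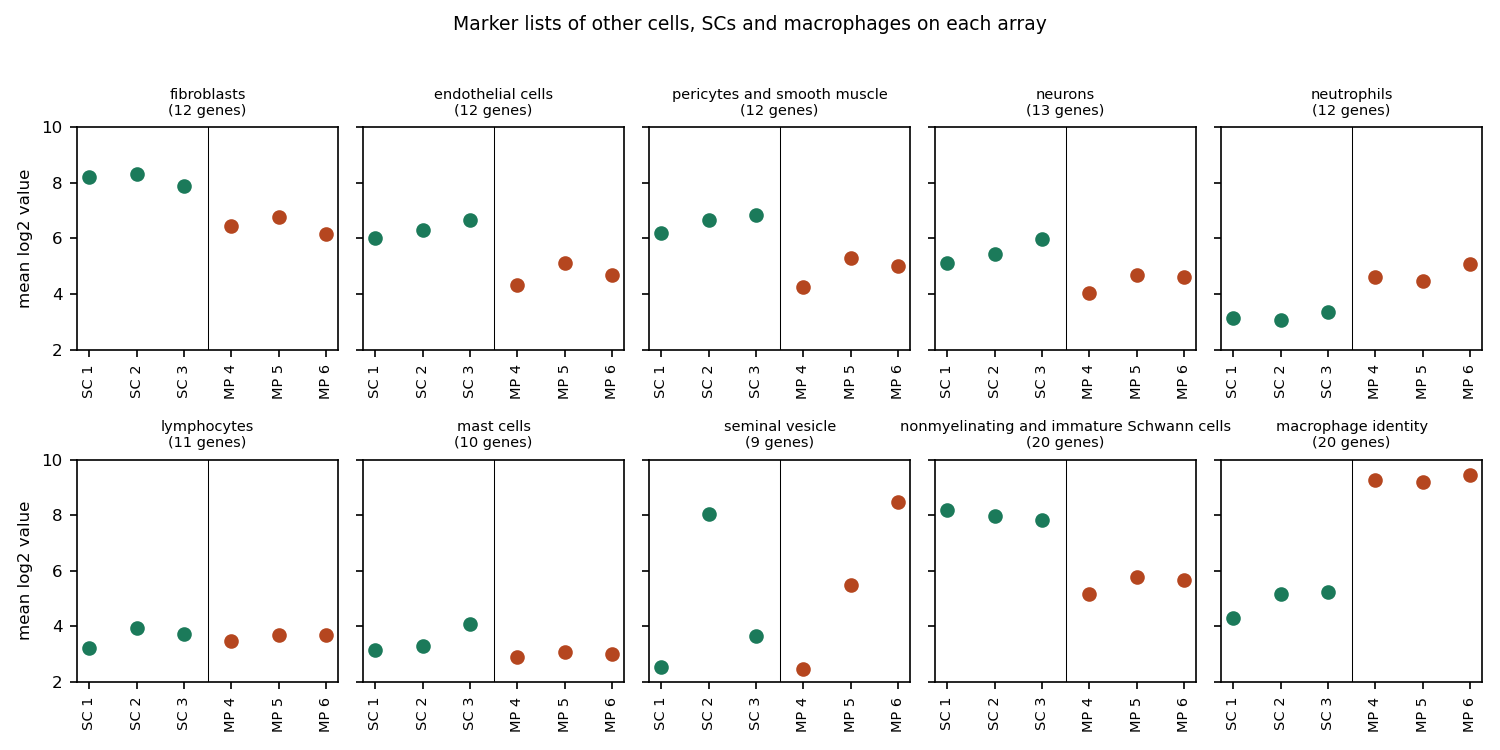
Mean log2 value over the measured genes of 10 marker lists (panels) on each of the 3 SC arrays and 3 macrophage (MP) arrays. Fibroblast, endothelial, pericyte and neuronal lists lie higher on every SC array, the neutrophil list lies higher on every macrophage array, and the seminal vesicle list is high on SC 2 and macrophages 5 and 6 and low on SC 1 and macrophage 4.

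Receptors for trophic factors dominated the neurotrophic list, of which 9 of 16 members were higher in SCs and 0 in macrophages (median 1.70). Cntfr, the receptor for ciliary neurotrophic factor, had 8.78, 8.89 and 8.29 in SCs, against 4.77, 5.89 and 5.55 in macrophages (9.52-fold, 3.25 ± 0.29, adjusted p = 2.84e-05). Erbb2 and Erbb3, which together receive axonal neuregulin, were 5.12-fold and 5.27-fold higher, and Ntrk2, the receptor for brain-derived neurotrophic factor, 6.51-fold. Among ligands Gdnf, a survival factor for sensory and motor neurons, had 6.82, 5.29 and 5.69 in SCs, against 3.47, 3.29 and 3.26 in macrophages, highest on SC 1 (2.59 ± 0.34, adjusted p = 0.000318), whereas Bdnf (0.13 ± 0.17), Artn (-0.21 ± 0.20) and Nrg1 (-0.14 ± 0.30) were not called. Axon guidance and axon-glia adhesion genes were higher in SCs for 17 of 30 and in macrophages for 1 (median 1.27). Nrcam, which clusters sodium channels at nodes of Ranvier, had 6.34, 6.45 and 6.76 in SCs, against 3.22, 3.14 and 2.94 in macrophages (3.41 ± 0.19, adjusted p = 1.58e-06), and Cntn1, an axonal and glial contactin, was 10.2-fold higher. Cadm4, the SC partner of axonal nectin-like proteins, was 7.22-fold higher, the secreted semaphorin Sema3c 7.86-fold, and the ephrin Efna5 by 2.32 ± 0.27 on the log2 scale. Nrp2, a coreceptor for semaphorins and VEGF, was the member higher in macrophages, with 7.24, 7.08 and 7.68 in SCs, against 8.75, 8.16 and 8.13 in macrophages (-1.02 ± 0.23, adjusted p = 0.0107), and the call was lost without SC 1, SC 2 or macrophage 4 and with the label batch as a term (-0.96). Robo1, a receptor for Slit proteins, was called at 1.07 ± 0.31 and lost the call without SC 2, SC 3, macrophage 4 or macrophage 5.

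The SC arrays were also set apart by genes of ion handling and lipid synthesis, and the part of satellite cells in these was not tested. Of 17 genes for ion and transmitter handling, 12 were higher in SCs and 0 in macrophages (median 1.98). Atp1b2, a glial sodium pump subunit, had 9.17, 9.35 and 8.81 in SCs, against 5.26, 5.86 and 5.67 in macrophages (11.4-fold, 3.51 ± 0.22, adjusted p = 3.51e-06), Slc1a3, a glutamate transporter, was 7.25-fold higher, and the potassium channels Kcna1 and Kcnj10 were 4.89-fold and 3.45-fold higher. Glul, which makes glutamine, was high on all arrays, 11.50, 11.43 and 11.43 in SCs, against 10.91, 10.95 and 11.03 in macrophages (0.49 ± 0.16, adjusted p = 0.0533). Of 20 measured genes of cholesterol and fatty acid synthesis, 18 were higher in SCs and 0 in macrophages (median 2.42). The steps of the mevalonate and sterol branch included Hmgcs1, which makes the precursor of mevalonate, with 10.08, 10.10 and 9.93 in SCs, against 6.78, 7.20 and 6.95 in macrophages (8.35-fold, 3.06 ± 0.18, adjusted p = 2.36e-06). Fdft1, the squalene synthase, had 9.12, 9.40 and 8.78 in SCs, against 5.90, 5.97 and 6.14 in macrophages (8.52-fold, 3.09 ± 0.20, adjusted p = 4.22e-06). Sqle, which oxidizes squalene, was 6.38-fold higher, and Srebf2, the transcription factor that controls the branch, 2.08-fold, a call lost without SC 2 or macrophage 5. In the fatty acid branch Fads2 and Scd1, which introduce double bonds, were 15.5-fold and 13.3-fold higher, Elovl6, which extends long chains, 8.25-fold, and Fasn, the synthase itself, 3.38-fold. Every macrophage array lay under every SC array for these genes, and macrophage 4 was lowest for Fads2 (10.01, 10.18 and 9.47 in SCs, against 4.88, 6.49 and 6.43 in macrophages). Mvd and Mvk, which carry out steps between mevalonate and isoprenoids, were not called (0.41 ± 0.20 and 0.04 ± 0.22).

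**Figure D4:**
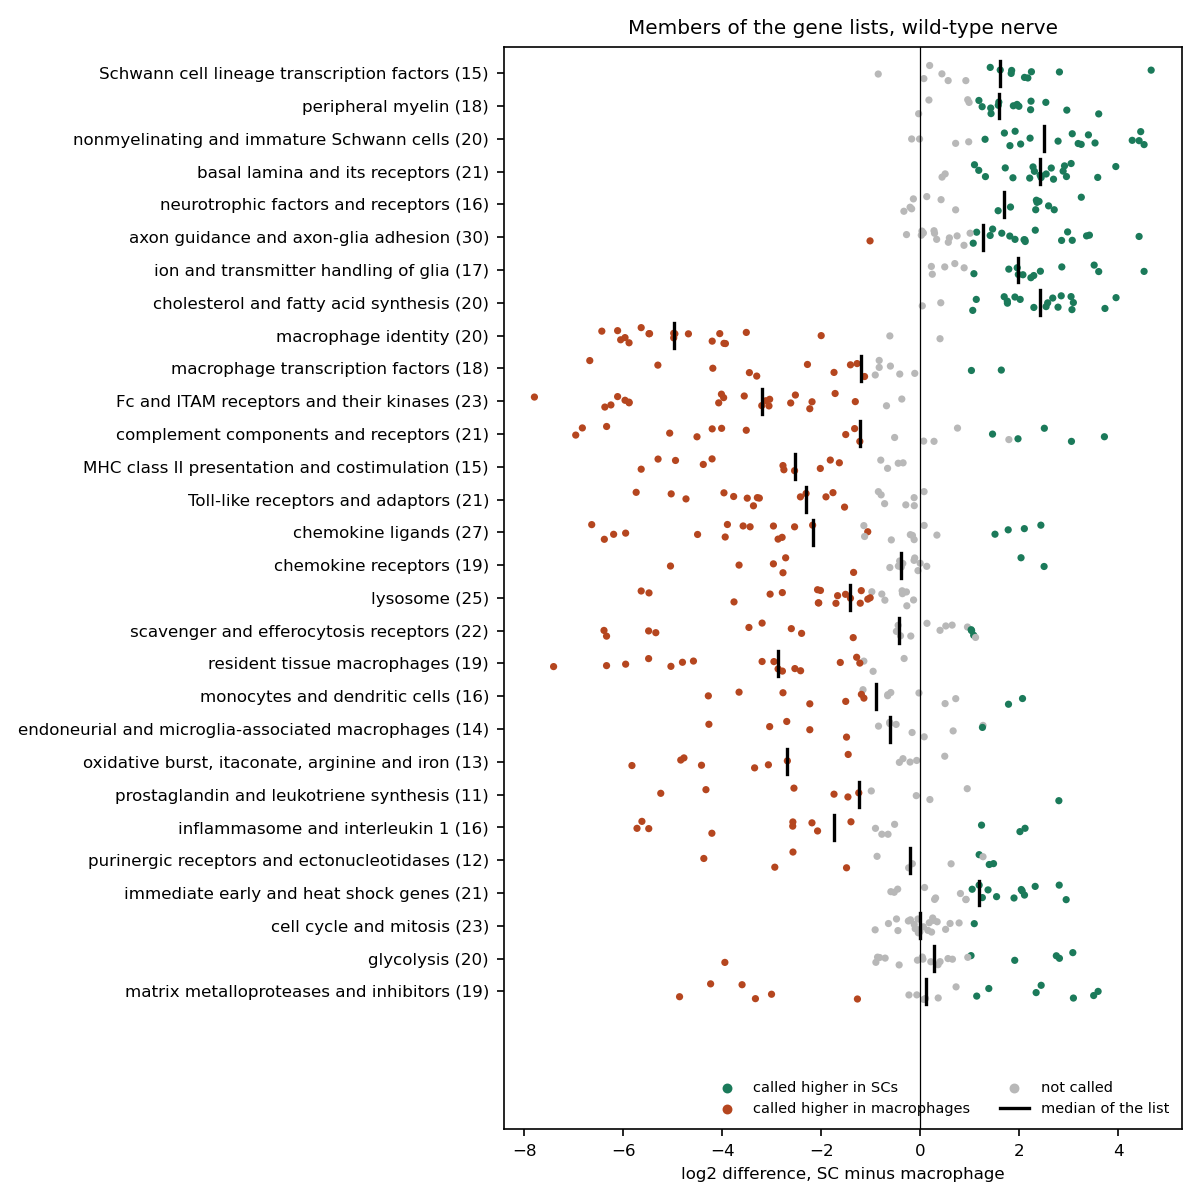
Log2 difference, SC minus macrophage (x axis), of each measured member of 29 gene lists (lines, number measured in parentheses), green where called higher in SCs, orange where called higher in macrophages and grey where not called, with a bar at the median of the list. The medians of the upper 8 lists lie to the right of 0, those of the lists tied to macrophage function to the left, and cell cycle genes cluster at 0.

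Macrophage identity genes were higher in macrophages for 18 of 20 members and in SCs for 0 (median -4.97). Fcer1g, the signaling chain shared by Fc receptors, had 5.06, 5.02 and 6.07 in SCs, against 11.53, 11.42 and 11.55 in macrophages (69.4-fold, -6.12 ± 0.27, adjusted p = 6.06e-07). Cd68, an endosomal glycoprotein, had 5.37, 5.73 and 6.64 in SCs, against 11.58, 11.25 and 11.35 in macrophages (-5.48 ± 0.29, adjusted p = 1.49e-06). Lyz2, lysozyme M, was even on macrophages and uneven on SCs, 5.13, 3.92 and 7.14 in SCs, against 11.45, 11.44 and 11.47 in macrophages, so that -6.05 became -6.93 without SC 3 and -5.32 without SC 2. Several pan-leukocyte genes were lowest on SC 1. Cd53, a leukocyte tetraspanin, had 3.13, 7.02 and 6.17 in SCs, against 10.94, 10.91 and 10.89 in macrophages (-5.47 ± 0.77, adjusted p = 0.00054), a difference that was -4.32 without SC 1 and -6.26 without SC 2. Ptprc, which encodes CD45, had 3.31, 5.16 and 4.49 in SCs, against 9.04, 8.86 and 9.12 in macrophages (-4.69 ± 0.38, adjusted p = 1.66e-05), while Jchain, an antibody-joining chain of plasma cells, had 2.58, 7.53 and 1.93 in SCs, against 2.66, 2.76 and 2.53 in macrophages, raised on SC 2. Over the whole macrophage identity list the mean value was 4.29, 5.16 and 5.22 in SCs, against 9.28, 9.21 and 9.47 in macrophages, and the part of immune cells in the SC sort was not tested. Cx3cr1, the fractalkine receptor, and Mertk, a receptor for dying cells, are counted among macrophage markers and were not called (-0.62 ± 0.22, adjusted p = 0.078, and 0.40 ± 0.21, adjusted p = 0.224). Cx3cr1 had 5.47, 5.27 and 5.67 in SCs, against 6.05, 5.72 and 6.48 in macrophages, and Mertk 6.82, 6.19 and 6.77 in SCs, against 6.23, 6.03 and 6.33 in macrophages.

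Of 18 transcription factors linked to macrophages, 10 were higher in macrophages and 2 in SCs (median -1.20). Spi1, which encodes the ETS factor PU.1 required for the myeloid lineage, had 4.03, 4.22 and 4.13 in SCs, against 8.34, 8.30 and 8.32 in macrophages (18.3-fold, -4.19 ± 0.16, adjusted p = 2.38e-07), with little spread in either group. Spic, a PU.1 relative of iron-recycling macrophages, had 2.77, 3.92 and 4.85 in SCs, against 10.50, 10.50 and 10.57 in macrophages (102-fold, -6.68 ± 0.42, adjusted p = 3.38e-06). Tfec, a myeloid member of the MiT family, had 2.76, 2.25 and 3.13 in SCs, against 7.75, 8.36 and 7.94 in macrophages (39.5-fold, -5.30 ± 0.26, adjusted p = 7.78e-07). Pparg, a lipid-sensing nuclear receptor, had a difference of -3.45 ± 0.33, Cebpa, a myeloid progenitor factor, one of -1.74 ± 0.19, and Maf, a factor of macrophage identity, one of -1.28 ± 0.20. Irf8, a monocyte and macrophage regulator, was -3.31 and became -2.71 without SC 1. Bhlhe40, a stress and circadian repressor, ran the other way with 9.46, 9.17 and 9.09 in SCs, against 6.64, 8.41 and 7.75 in macrophages (1.63 ± 0.37, adjusted p = 0.0102), as did Klf4, a pluripotency factor, at 1.03 ± 0.25, whose call was lost without SC 2, SC 3, macrophage 5 or macrophage 6.

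The sequence just before the start of genes was read for letters bound by the named factors, over the 250 bases before the RefSeq start (GRCm38.p6) and on both strands, for 16990 of the 22180 genes. Some genes have several starts, so 20611 windows were searched. A gene was counted once when any of its windows held the letters, so genes with more windows had more room for a match. GAGGAAGT, the core of PU.1 sites, stood before 454 genes (2.67%), before 35 of 1481 genes higher in SCs (2.36%) and before 67 of 862 genes higher in macrophages (7.77%). AGGAAGTG, an ETS letter string that overlaps the PU.1 one, stood before 3.66% of all genes, 3.04% of SC genes and 9.05% of macrophage genes. AANNGAAA, the core that interferon regulatory factors bind, stood before 22.5%, 20.2% and 28.5%. In the same order, the SOX letters ACAAAG (17.0%, 15.6% and 15.7%) and AACAATG (3.28%, 2.63% and 3.25%), the sterol response letters TCACNCCAC (1.22%, 1.22% and 1.86%), the AP-1 letters TGACTCA (4.89%, 4.93% and 6.96%), the CREB letters TGACGTCA (2.3%, 2.77% and 1.62%) and the C/EBP letters TTGCGCAA (0.224%, 0.135% and 0.464%) followed. The median GC content, averaged over the windows of a gene, was 55.6% for all genes, 60.4% for SC genes and 54.8% for macrophage genes, and its part in these shares was not tested. The strings were chosen with the calls known, a match is a description of letters and not of binding, and no test was made. Shown here are the windows of 6 macrophage genes that hold the PU.1 letters, which are in capitals in either direction, the 6 with the widest difference among the genes looked at. They belong to Retnla (chr16:48842359-48842608, plus strand), Pf4 (chr5:90772185-90772434, plus strand), Tlr1 (chr5:64933559-64933808, minus strand), Hpgds (chr6:65144731-65144980, minus strand), Mmp12 (chr9:7344147-7344396, plus strand) and Pirb, an inhibitory immunoglobulin-like receptor (chr7:3720383-3720632, minus strand), and each is written 5′ to 3′ toward its gene.
Retnla: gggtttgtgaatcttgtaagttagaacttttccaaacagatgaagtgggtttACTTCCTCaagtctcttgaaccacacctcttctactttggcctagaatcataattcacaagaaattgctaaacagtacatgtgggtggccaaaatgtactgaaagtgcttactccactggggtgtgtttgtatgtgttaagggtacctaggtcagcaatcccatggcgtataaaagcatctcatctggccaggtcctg
Pf4: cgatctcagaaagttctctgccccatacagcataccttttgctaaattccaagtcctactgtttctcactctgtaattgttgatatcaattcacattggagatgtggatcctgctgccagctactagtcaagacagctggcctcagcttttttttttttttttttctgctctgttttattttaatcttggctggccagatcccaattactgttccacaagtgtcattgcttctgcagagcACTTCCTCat
Tlr1: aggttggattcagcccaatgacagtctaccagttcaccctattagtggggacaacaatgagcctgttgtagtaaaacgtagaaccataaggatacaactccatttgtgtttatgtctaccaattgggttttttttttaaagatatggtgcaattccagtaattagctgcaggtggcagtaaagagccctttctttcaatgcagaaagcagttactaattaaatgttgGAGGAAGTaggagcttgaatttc
Hpgds: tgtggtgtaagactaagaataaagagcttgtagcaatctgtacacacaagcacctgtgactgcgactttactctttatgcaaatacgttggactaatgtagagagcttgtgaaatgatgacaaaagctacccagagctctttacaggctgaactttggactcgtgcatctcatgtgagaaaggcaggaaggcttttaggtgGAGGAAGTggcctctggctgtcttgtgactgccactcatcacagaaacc
Mmp12: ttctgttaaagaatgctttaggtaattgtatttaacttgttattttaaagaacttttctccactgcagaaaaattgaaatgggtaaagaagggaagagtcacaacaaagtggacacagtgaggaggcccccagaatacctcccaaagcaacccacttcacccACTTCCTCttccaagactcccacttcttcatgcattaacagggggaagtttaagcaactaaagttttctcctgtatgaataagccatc
Pirb: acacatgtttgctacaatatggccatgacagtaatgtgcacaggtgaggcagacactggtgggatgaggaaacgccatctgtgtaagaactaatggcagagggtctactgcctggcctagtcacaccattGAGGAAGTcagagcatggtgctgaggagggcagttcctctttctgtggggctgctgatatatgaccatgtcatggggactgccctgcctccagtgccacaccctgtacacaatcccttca

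Fc receptors, ITAM-coupled receptors and their kinases were higher in macrophages for 21 of 23 members and in SCs for 0 (median -3.20). Clec4n, the lectin dectin-2, had 3.36, 2.60 and 3.04 in SCs, against 9.16, 9.39 and 9.57 in macrophages (82.9-fold, -6.37 ± 0.22, adjusted p = 1.83e-07), and Clec4a1, a neighboring lectin gene, was 76.2-fold higher. Such genes lie in a cluster of close paralogs, whose probes may share signal. Tyrobp, the adaptor DAP12, was 59.1-fold higher in macrophages, Trem2, a lipid-sensing receptor that signals through it, 8.25-fold, and Fcgr1, the high-affinity IgG receptor, 62.5-fold. Downstream, the kinases Syk and Btk were 8.33-fold and 6.15-fold higher, and Vav1, a hematopoietic exchange factor, 11.8-fold. Fcgr2b, the inhibitory Fc receptor, was an exception, with 6.13, 5.66 and 5.49 in SCs, against 5.97, 5.87 and 6.56 in macrophages (-0.38 ± 0.24, adjusted p = 0.32). Of 21 Toll-like receptors and adaptors, 14 were higher in macrophages and 0 in SCs (median -2.31). Tlr13, a receptor for bacterial ribosomal RNA, had 2.20, 2.50 and 2.08 in SCs, against 8.38, 7.54 and 8.09 in macrophages (53.5-fold, -5.74 ± 0.24, adjusted p = 3.39e-07), Tlr1, for lipoproteins, 32.8-fold, and Tlr7, for single-stranded RNA, 26.6-fold. Tlr4, the endotoxin receptor, differed less, with 5.47, 5.38 and 5.21 in SCs, against 7.45, 6.95 and 6.97 in macrophages (-1.77 ± 0.20, adjusted p = 0.000112). Tlr3, for double-stranded RNA, had 6.64, 7.09 and 5.84 in SCs, against 6.57, 6.36 and 6.41 in macrophages (0.07 ± 0.29, adjusted p = 0.887), and its arrays overlapped.

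MHC class II presentation and costimulation genes were higher in macrophages for 11 of 15 (median -2.54), and 0 were higher in SCs. Cd86, a costimulator of T cells, had 4.06, 4.75 and 4.00 in SCs, against 9.34, 9.64 and 9.74 in macrophages (39.4-fold, -5.30 ± 0.23, adjusted p = 5.54e-07), and Cd274, which encodes PD-L1, was 6.76-fold higher. The class II chains were even on macrophages and uneven on SCs. H2-Ab1 had 4.33, 8.01 and 5.59 in SCs, against 10.85, 10.94 and 10.98 in macrophages, highest on SC 2, and -4.95 became -5.96 without SC 2 and -4.12 without SC 1. H2-Aa had 4.98, 8.12 and 6.36 in SCs, against 10.65, 10.65 and 10.79 in macrophages (-4.21 ± 0.60, adjusted p = 0.000601), which became -5.03 without SC 2 and -3.45 without SC 1. Ciita, the class II transactivator, was not called (-0.80 ± 0.27, adjusted p = 0.0563). Among markers of monocytes and dendritic cells, 7 of 16 were higher in macrophages and 2, Fn1 and Ace, in SCs (median -0.90). Chil3, a chitinase-like lectin, was 19.5-fold higher and Ccr2, the receptor that draws monocytes into tissue, had 3.14, 2.92 and 2.96 in SCs, against 7.27, 6.27 and 6.47 in macrophages (12.7-fold, -3.66 ± 0.25, adjusted p = 6.06e-06). Ccr7, the homing receptor of migrating dendritic cells, had 3.72, 7.02 and 5.25 in SCs, against 6.51, 9.11 and 8.71 in macrophages, low on macrophage 4 and high on SC 2, and its arrays overlapped. Its -2.78 (adjusted p = 0.0341) lost its call without SC 1, SC 3, macrophage 5 or macrophage 6 and with the label batch as a term, and was -1.97 without SC 1, -3.62 without SC 2 and -3.58 without macrophage 4. Flt3 (-0.66 ± 0.22), Xcr1 (-0.66 ± 0.23) and Zbtb46 (-0.03 ± 0.16), which define conventional dendritic cells, were not called.

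Genes of resident tissue macrophages were higher in macrophages for 16 of 19 (median -2.87), with 0 higher in SCs. Mrc1, the mannose receptor, had 2.67, 3.60 and 2.90 in SCs, against 9.65, 9.18 and 9.36 in macrophages (81.0-fold, -6.34 ± 0.25, adjusted p = 2.83e-07). Folr2, a folate receptor of perivascular and resident cells, had 4.42, 4.26 and 4.58 in SCs, against 9.21, 9.56 and 9.61 in macrophages (32.9-fold, -5.04 ± 0.19, adjusted p = 2.37e-07). Timd4, a phosphatidylserine receptor of long-lived cells, had 3.57, 3.72 and 3.22 in SCs, against 8.90, 9.03 and 9.06 in macrophages (44.9-fold, -5.49 ± 0.19, adjusted p = 1.77e-07). F13a1, a transglutaminase of coagulation, was 24.0-fold higher and Cbr2, a carbonyl reductase, 28.0-fold. Lyve1, a hyaluronan receptor that lymphatic endothelium also carries, differed less, with 6.09, 7.23 and 5.52 in SCs, against 7.76, 8.12 and 7.80 in macrophages (-1.62 ± 0.37, adjusted p = 0.00977), and lost its call in the fit of 14 arrays, with the label batch as a term (-1.42) and without macrophages 5 and 6 (-1.49). The list of genes associated with microglia and endoneurial macrophages divided, with 5 of 14 higher in macrophages, 1, Olfml3, in SCs and 8 not called (median -0.62). Fcrls had 3.63, 3.42 and 3.22 in SCs, against 7.46, 7.46 and 8.16 in macrophages (19.3-fold, -4.27 ± 0.23, adjusted p = 1.49e-06), Gpnmb, a glycoprotein of lipid-laden cells, was 6.5-fold higher, and Siglech, a sialic acid lectin, 4.7-fold. Tmem119, a microglial marker, was at 4.27, 4.27 and 4.45 in SCs, against 4.37, 4.33 and 4.79 in macrophages (-0.17 ± 0.19, adjusted p = 0.589), and P2ry12, the microglial ADP receptor, was not called either (1.27 ± 0.49, adjusted p = 0.0986). Neutrophil markers moved with macrophages for 5 of 12 members, with a list mean of 3.06 to 3.34 on SC arrays and 4.48 to 5.07 on macrophage arrays. S100a8, an alarmin of neutrophils and monocytes, was -3.94 and became -3.26 without SC 2 and -4.60 without SC 3, while Ly6g, the defining neutrophil antigen, had 1.89, 2.10 and 1.74 in SCs, against 2.49, 2.28 and 2.12 in macrophages, and their part in the macrophage differences was not tested.

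Complement genes went both ways, with 11 of 21 members higher in macrophages and 5 in SCs (median -1.22). C1qa, a chain of the C1q initiator, had 4.33, 5.13 and 5.22 in SCs, against 9.16, 9.38 and 9.67 in macrophages (22.8-fold, -4.51 ± 0.26, adjusted p = 2.06e-06), C1qc was 16.2-fold higher and C1qb 125-fold, the last with 2.33, 2.80 and 4.45 in SCs, against 10.15, 10.07 and 10.25 in macrophages and a difference of -6.96 that became -7.59 without SC 3. C3ar1 and C5ar1, the receptors for the C3a and C5a peptides, were 114-fold and 80.9-fold higher, and Cfp, properdin, which stabilizes the alternative convertase, 11.5-fold. Among the SC members, Cd59a, which blocks the membrane attack complex, had 8.09, 7.35 and 7.53 in SCs, against 3.60, 4.79 and 3.43 in macrophages (13.2-fold, 3.72 ± 0.35, adjusted p = 3.77e-05). Serping1, the C1 inhibitor, had 10.31, 10.15 and 10.53 in SCs, against 7.11, 7.88 and 6.85 in macrophages (8.29-fold, 3.05 ± 0.26, adjusted p = 2.26e-05). Cd55, which speeds the decay of convertases, was 3.92-fold higher. C1s1, the C1 protease that Serping1 restrains, was 5.67-fold higher in SCs, and C2, its substrate, 2.75-fold. C4b (0.75 ± 0.36, adjusted p = 0.18) and Cfb (-0.52 ± 0.39, adjusted p = 0.397) were not called, and C3 was not analysed here.

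Chemokine ligands divided as well, with 15 of 27 higher in macrophages and 4 in SCs (median -2.18). Ccl12, a monocyte attractant of mice, had 3.53, 2.15 and 3.86 in SCs, against 9.33, 9.86 and 10.27 in macrophages (99.7-fold, -6.64 ± 0.41, adjusted p = 3.15e-06). Pf4, platelet factor 4, had 4.70, 5.41 and 6.07 in SCs, against 11.32, 11.27 and 11.45 in macrophages (62.0-fold, -5.95 ± 0.30, adjusted p = 9.57e-07). The neutrophil attractants Cxcl2 and Cxcl3 were 10.9-fold and 14.9-fold higher. Cxcl2 had 8.35, 8.83 and 8.56 in SCs, against 12.02, 11.99 and 12.05 in macrophages, so that SCs were also well above the array median. Ccl3 and Ccl4, inflammatory chemokines, were uneven on SCs. Ccl3 had 3.55, 5.72 and 6.61 in SCs, against 11.50, 11.64 and 11.90 in macrophages, lowest on SC 1, and -6.38 became -5.51 without SC 1 and -7.04 without SC 3, and -6.20 for Ccl4 became -5.54 without SC 1. Ccl5, a T cell attractant, was -2.97 and became -3.59 without SC 2. In SCs Cxcl14 was 5.4-fold higher, Cxcl12, the ligand of CXCR4, 3.42-fold, Ccl11, eotaxin, 2.84-fold, and Cx3cl1, the membrane-bound fractalkine, had 6.34, 6.39 and 7.17 in SCs, against 4.11, 4.74 and 4.75 in macrophages (4.29-fold, 2.10 ± 0.27, adjusted p = 0.000303). The call of Ccl11 was lost in the fits of 14 and 21 arrays and with the label batch as a term (1.49 against 1.51). Ccl2, the main ligand of CCR2, was equally high, 11.88, 11.67 and 11.66 in SCs, against 11.39, 11.79 and 11.80 in macrophages (0.08 ± 0.19, adjusted p = 0.82), and so was the interferon-induced Cxcl10, 10.76, 11.03 and 10.69 in SCs, against 10.81, 11.18 and 11.09 in macrophages (-0.20 ± 0.19, adjusted p = 0.495). Of 19 receptors, 6 were higher in macrophages and 2, the scavenging receptors Ackr1 and Ackr3, in SCs (median -0.39). The macrophage count was 4 to 5 with 1 array left out. Ccr1 was 33.1-fold higher in macrophages.

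Of 16 inflammasome and interleukin 1 genes, 9 were higher in macrophages and 3 in SCs (median -1.74). Il1a had 3.22, 3.03 and 3.26 in SCs, against 8.20, 9.24 and 9.25 in macrophages (52.9-fold, -5.72 ± 0.28, adjusted p = 8.03e-07). Il1b had 3.93, 6.12 and 5.05 in SCs, against 9.71, 10.91 and 10.95 in macrophages (44.9-fold, -5.49 ± 0.51, adjusted p = 3.45e-05). By the study's account, qRT-PCR of sorted wild-type SCs and macrophages failed to detect Il1b, at 1 month as at 7 months of age. The reason for this discrepancy with the array values was not tested. Il1rn, the receptor antagonist, had 4.16, 4.82 and 4.82 in SCs, against 10.09, 10.28 and 10.31 in macrophages (49.4-fold, -5.63 ± 0.22, adjusted p = 2.38e-07). Agonists and antagonist were thus all higher in macrophages, and Il1b was lowest on SC 1 and macrophage 4 of its groups. Nlrp3, the sensor of the best-known inflammasome, had 2.91, 2.99 and 2.95 in SCs, against 7.23, 7.22 and 7.04 in macrophages (18.5-fold, -4.21 ± 0.16, adjusted p = 2.38e-07), and Casp1, which cleaves the cytokine precursors, was 5.98-fold higher. Il1r1, the signaling receptor, had 8.59, 9.12 and 8.91 in SCs, against 6.99, 6.74 and 6.86 in macrophages (4.03-fold higher in SCs, 2.01 ± 0.19, adjusted p = 4.33e-05), and its coreceptor chain Il1rap was 2.35-fold higher in SCs, a difference of 1.24 that was 0.54, with the call lost, when all its transcript clusters were averaged. Il33, a nuclear alarmin of the family, had 9.65, 9.36 and 9.45 in SCs, against 7.35, 7.86 and 6.91 in macrophages (4.33-fold, 2.11 ± 0.24, adjusted p = 0.000142), and its call was lost with the label batch as a term (2.23). For eicosanoids 6 of 11 genes were higher in macrophages and 1 in SCs (median -1.24). Alox5ap, which presents arachidonate to 5-lipoxygenase, had 4.46, 5.30 and 4.40 in SCs, against 10.07, 9.77 and 10.05 in macrophages (37.9-fold, -5.24 ± 0.25, adjusted p = 7.78e-07). Hpgds, the hematopoietic prostaglandin D synthase, had 3.45, 3.44 and 3.37 in SCs, against 8.24, 7.41 and 7.60 in macrophages (20.1-fold, -4.33 ± 0.23, adjusted p = 1.19e-06). SCs instead had Ptgds, the lipocalin-type synthase of the same prostaglandin, 7.52, 8.04 and 9.81 in SCs, against 5.49, 5.68 and 5.80 in macrophages, highest on SC 3, and 2.80 became 2.12 without SC 3. Ptgs2, the inducible cyclooxygenase, was high on every array and 2.76-fold higher in macrophages (-1.46 ± 0.22, adjusted p = 0.000822). Of 13 genes for oxidative burst, itaconate, arginine and iron, 8 were higher in macrophages and 0 in SCs (median -2.69). They included Cybb, the catalytic subunit of the phagocyte oxidase (56.8-fold), Slc11a1, a metal pump of phagosomes (28.7-fold), Slc40a1, the iron exporter (27.4-fold), and Acod1, which makes itaconate (21.4-fold). Hmox1, heme oxygenase, was very high and alike on all arrays, 12.12, 12.09 and 12.21 in SCs, against 12.39, 12.28 and 12.37 in macrophages (-0.21 ± 0.16, adjusted p = 0.413), and Nos2 (-0.08 ± 0.22) and Arg1 (-0.35 ± 0.28) were not called.

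Lysosomal genes were higher in macrophages for 17 of 25 and in SCs for 0 (median -1.41). Lipa, the acid lipase, had 7.15, 6.64 and 7.22 in SCs, against 11.13, 10.63 and 10.54 in macrophages (13.6-fold, -3.77 ± 0.23, adjusted p = 3.01e-06), Ctss, a cathepsin that trims the class II chaperone, was 49.9-fold higher and Lgmn, an asparagine-directed protease, 6.91-fold. Among members that encode membrane proteins of the organelle, Cd68 (-5.48) was called, and Lamp1 (-0.28 ± 0.18, adjusted p = 0.302) and Cd63 (-0.14 ± 0.16, adjusted p = 0.61) were not. Scavenger and efferocytosis receptors were higher in macrophages for 9 of 22 and in SCs for 3 (median -0.43). Msr1, scavenger receptor A, had 3.15, 3.50 and 2.86 in SCs, against 9.84, 9.12 and 9.72 in macrophages (83.9-fold, -6.39 ± 0.24, adjusted p = 2.38e-07). Cd36, a receptor for oxidized lipid, had 5.98, 6.27 and 6.04 in SCs, against 11.60, 11.28 and 11.44 in macrophages (40.6-fold, -5.34 ± 0.18, adjusted p = 1.77e-07). The SC members were Scarb1 (2.05-fold), Itgb5 (2.04-fold, a call lost without SC 1, SC 3, macrophage 4 or macrophage 5 and with the label batch as a term) and Gas6, the bridge from dying cells to TAM receptors, with 7.83, 7.50 and 8.70 in SCs, against 6.91, 6.95 and 6.94 in macrophages, highest on SC 3. Its 1.08 became 0.73 without SC 3 and lost its call there and without macrophage 5 or macrophage 6. Purinergic genes were higher in macrophages for 4 of 12 and in SCs for 3 (median -0.20), with P2ry6 (20.7-fold), P2rx4 (7.68-fold) and P2rx7 (5.95-fold), receptors for uridine and adenine nucleotides, in macrophages and Panx1, a channel that releases ATP (2.78-fold), Nt5e, which makes adenosine (2.62-fold), and P2ry1 (2.28-fold) in SCs. The 1.39 of Nt5e was 1.44 with the label batch as a term and 1.19 without macrophages 5 and 6, and both lost the call. Matrix proteases and inhibitors came out near even, 7 of 19 in SCs and 6 in macrophages (median 0.10). Mmp13, a collagenase, had 4.41, 3.41 and 4.42 in SCs, against 9.13, 8.58 and 9.13 in macrophages (29.1-fold, -4.87 ± 0.29, adjusted p = 2.59e-06), and Mmp12, the macrophage elastase, was 18.9-fold higher in macrophages. Timp3, a matrix-bound inhibitor, had 11.18, 11.06 and 11.29 in SCs, against 7.08, 8.20 and 7.48 in macrophages (3.59 ± 0.27, adjusted p = 9e-06), Timp1 and Timp2 were 5.06-fold and 2.2-fold higher in SCs (Timp2 not without macrophage 4), and so were the aggrecanase Adamts5 (11.3-fold) and Mmp2, gelatinase A (5.43-fold).

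Genes that respond to stress within minutes were higher in SCs for 12 of 21 members and in macrophages for 0 (median 1.19). Egr1, a serum response factor target, had 9.48, 10.08 and 9.83 in SCs, against 6.38, 7.01 and 7.15 in macrophages (7.7-fold, 2.94 ± 0.25, adjusted p = 1.9e-05). Nr4a1, an orphan nuclear receptor, had 8.83, 9.41 and 9.43 in SCs, against 5.60, 6.88 and 6.78 in macrophages (6.98-fold, 2.80 ± 0.33, adjusted p = 0.00017). Hspa1a, a heat shock chaperone, had 11.67, 11.39 and 11.39 in SCs, against 9.87, 10.26 and 10.58 in macrophages (2.38-fold, 1.25 ± 0.21, adjusted p = 0.0019). These genes can be induced by tissue digestion, and the part of the digestion in their difference, and in that of Jun above, was not tested. Atf3 (0.29 ± 0.19, adjusted p = 0.341), Zfp36 (-0.46 ± 0.17, adjusted p = 0.0765) and Hspa8 (0.09 ± 0.16, adjusted p = 0.764) were high in both cell types and were not called. Glycolytic genes were higher in SCs for 5 of 20 and in macrophages for 1 (median 0.28). Aldoc, the brain-type aldolase (8.45-fold), Ldhb, the heart-type lactate dehydrogenase (6.71-fold), and Slc16a1, a lactate carrier (3.75-fold), were higher in SCs, and Hk3, a hematopoietic hexokinase, had 3.18, 2.69 and 3.08 in SCs, against 7.12, 6.70 and 6.97 in macrophages (15.5-fold higher in macrophages, -3.95 ± 0.20, adjusted p = 1.01e-06). Gapdh was level, 11.16, 11.35 and 11.18 in SCs, against 11.28, 11.08 and 11.17 in macrophages (0.05 ± 0.17, adjusted p = 0.868). Of 23 cell cycle genes 1 was called, Ccnd1, the early G1 cyclin, with 7.56, 7.80 and 6.98 in SCs, against 5.77, 6.91 and 6.40 in macrophages (1.09 ± 0.31, adjusted p = 0.0288), which lost its call without SC 1, SC 2, macrophage 4 or macrophage 6, while 3 genes were called without macrophages 5 and 6. The share of all genes called in either direction was 13.9%. Mki67, a proliferation antigen, had 4.40, 4.49 and 4.72 in SCs, against 4.96, 5.09 and 5.51 in macrophages (-0.64 ± 0.20, adjusted p = 0.044), short of 2-fold.

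Of 74 ligand and receptor pairs listed from general knowledge, 64 had both members measured. Of all genes, 8.84% were called higher in SCs and 5.02% in macrophages, and some members stand in several pairs. Whether the pair counts depart from what the calls of single members give was not tested. A pair was counted when both members were called, and 21 pairs were. In 4 the ligand was higher in SCs and the receptor in macrophages. Csf1 and Il34, the ligands of the receptor on which macrophages depend, were both SC genes. Csf1 had 8.56, 8.14 and 8.64 in SCs, against 5.54, 6.52 and 5.87 in macrophages (5.53-fold, 2.47 ± 0.26, adjusted p = 8.57e-05). Il34 had 6.89, 7.02 and 6.53 in SCs, against 3.87, 4.58 and 4.43 in macrophages (5.73-fold, 2.52 ± 0.23, adjusted p = 3.35e-05). Their receptor Csf1r, which holds macrophages alive, had 4.03, 3.92 and 4.17 in SCs, against 9.17, 8.72 and 9.11 in macrophages (31.1-fold higher in macrophages, -4.96 ± 0.19, adjusted p = 2.38e-07). Cd200, an inhibitory surface ligand, had 9.86, 10.24 and 10.24 in SCs, against 6.47, 8.55 and 7.76 in macrophages (5.72-fold, 2.51 ± 0.43, adjusted p = 0.00176). Its receptor gene Cd200r1 had 2.90, 3.21 and 2.94 in SCs, against 6.98, 6.84 and 6.70 in macrophages (14.2-fold higher in macrophages, -3.82 ± 0.18, adjusted p = 7.3e-07). The fourth pair was Sema3c with Nrp2, whose call depended on single arrays as given above. In another 4 the ligand was higher in macrophages and the receptor in SCs. Osm, oncostatin M, had 3.90, 4.60 and 4.05 in SCs, against 7.46, 7.25 and 7.47 in macrophages (9.25-fold, -3.21 ± 0.21, adjusted p = 4.59e-06). Its receptor Osmr had 9.35, 8.57 and 8.94 in SCs, against 5.34, 5.96 and 5.38 in macrophages (10.5-fold higher in SCs, 3.39 ± 0.25, adjusted p = 8.71e-06). Il1a and Il1b with Il1r1 have been given above, as has the qRT-PCR result for Il1b. Grn, progranulin, was 4.17-fold higher in macrophages against Sort1, its sorting receptor, 6.11-fold higher in SCs. In 9 pairs both members were SC genes. They were Ptn, pleiotrophin (9.11-fold), with Ptprz1, Dhh with Ptch1 (7.47-fold), Gdnf with Gfra1 (3.53-fold), Lif with Lifr (5.02-fold and 5.03-fold), Btc and Hbegf with Egfr (3.74-fold), Cxcl12 with Ackr3, and Slit2 and Slit3 with Robo1. By the study's account, as given above, the sorted p75 cells lacked EGFR protein. The part of fibroblasts and other nerve cells in these pairs was not tested. In 4 both were macrophage genes. Tnf had 5.17, 4.12 and 5.05 in SCs, against 10.26, 10.43 and 10.60 in macrophages (50.2-fold, -5.65 ± 0.27, adjusted p = 7.78e-07) with Tnfrsf1b (21.4-fold), Il10 was 25.5-fold higher with Il10ra (21.1-fold) and Il10rb (5.51-fold), and Jag1 (-1.08 ± 0.29) stood with Notch2 (-1.11 ± 0.26). Both lost their calls without macrophage 4, and Jag1 also without SC 1 or SC 2. Leaving out 1 array at a time left 7 to 12 SC pairs, 3 to 4 macrophage pairs, 3 to 4 pairs from SC ligand to macrophage receptor and 4 to 5 the other way.

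In the remaining 43 pairs at most 1 member was called. SC ligands met receptors that were not called in 12, such as Tgfb2 (6.04-fold) with Tgfbr2 (0.94 ± 0.17, adjusted p = 0.00281), Igf2 (3.08-fold) with Igf1r (0.50 ± 0.22, adjusted p = 0.137) and Cx3cl1 with Cx3cr1. Macrophage ligands did so in 7, among them Tgfb1 (2.88-fold), Igf1 (5.35-fold) and Edn1, endothelin 1 (5.23-fold). Edn1 faced Ednrb, the endothelin B receptor, which was high on all 6 arrays with 10.28, 10.31 and 10.12 in SCs, against 10.50, 10.11 and 10.15 in macrophages (-0.02 ± 0.18, adjusted p = 0.962). Il6 was called higher in SCs, 9.53, 9.84 and 9.69 in SCs, against 7.15, 8.78 and 9.01 in macrophages (1.37 ± 0.41, adjusted p = 0.0364), and its call was lost without any SC array or without macrophage 4, where the difference was 0.79. RNA of a ligand and of its receptor does not show that the proteins met, and the pair list is short and does not cover all pairs known.

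**Figure D5:**
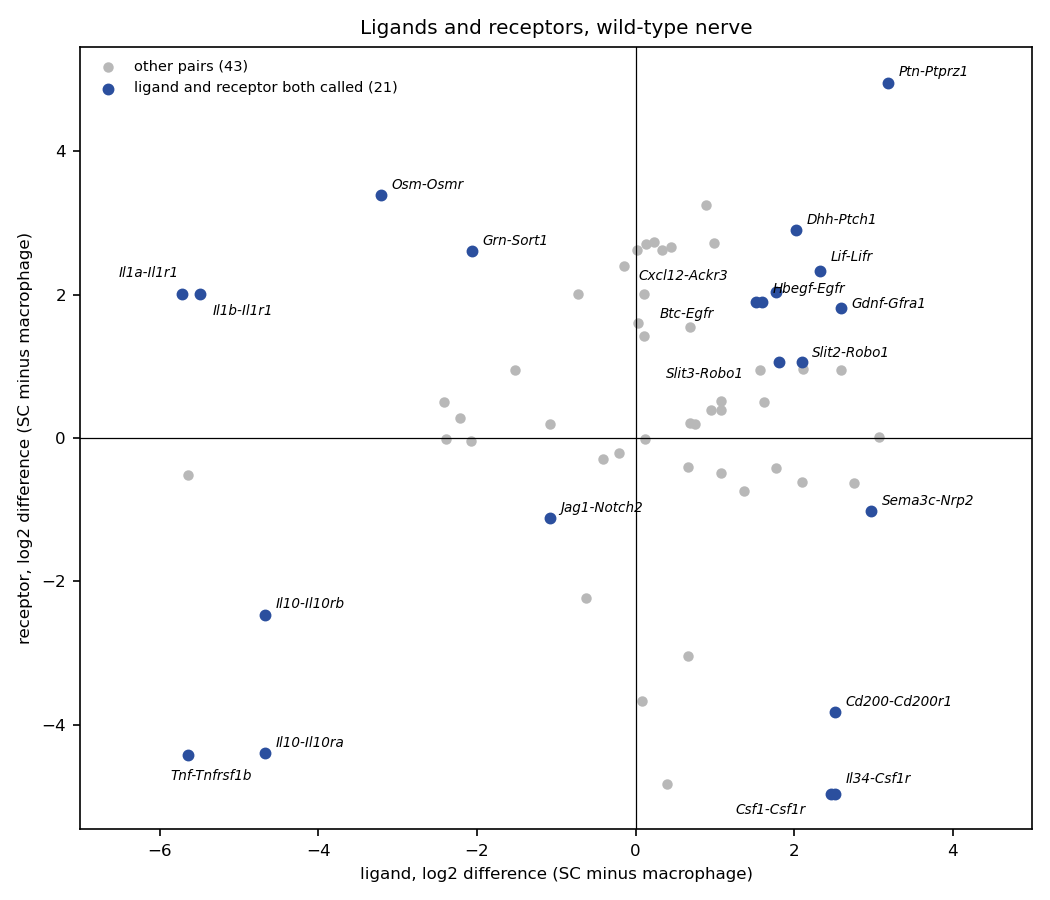
Log2 difference, SC minus macrophage, of the ligand (x axis) and the receptor (y axis) in each of 64 pairs, with the 21 pairs in which both members were called in blue and named, and 43 other pairs in grey. The lower right holds SC ligands with macrophage receptors, the upper left macrophage ligands with SC receptors.

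Genes were also sorted by presence in a cell type alone, read against a limit on the array values. A gene was counted as present in a cell type alone when it exceeded the lower quartile of the array on all 3 arrays of that type and on no array of the other, with no claim that the others lack it. By that measure 127 genes (0.573%) were found in SCs alone and 88 (0.397%) in macrophages alone. Conversely 1779 of the 1961 genes called higher in SCs exceeded the lower quartile on every macrophage array, and 959 of the 1113 genes called higher in macrophages did so on every SC array. Of all 22180 genes, 14604 exceeded it on all 6 arrays, so these counts do not show expression in both cell types. Tlr13, Ms4a6c (2.57, 2.17 and 2.59 in SCs, against 7.48, 8.51 and 8.11 in macrophages) and Oas1g, an interferon-induced synthetase (2.42, 2.69 and 2.44 in SCs, against 7.92, 8.46 and 8.09 in macrophages), were in the macrophage class. Mmp3, stromelysin (4.03, 3.93 and 3.68 in SCs, against 2.68, 2.44 and 2.36 in macrophages), and Sema3d, a semaphorin (4.17, 3.80 and 4.79 in SCs, against 2.69, 2.99 and 2.84 in macrophages), were in the SC class. With the median of the same genes on each array as the limit (4.00 to 4.12) the classes held 383 and 345 genes. With 3.1 on every array they held 79 and 213, so their sizes depend on the limit.

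The same contrast was then set against Nf1fl/fl;DhhCre nerve, where Cre acts in the SC lineage and where, by the study's account, the sorted SCs mix cells with and without Nf1, to ask whether wild-type cells differ from each other in a way of their own. The difference of the differences was tested in a fit of the 14 arrays of 1-month-old mice, and 0 of 22180 genes (0%) passed the threshold (limma). The smallest adjusted p was 0.381, and 2156 of the 22180 genes had an unadjusted p under 0.05. By limma the smallest adjusted p varied with the processing. It was 0.0754 with quantile normalization over the 14 arrays, 0.0904 in the fit of 21 arrays and 0.677 with the label batch as a term, with 0 genes called in each. In mutant nerve 2858 genes were called, 1592 higher in SCs and 1266 in macrophages, and 2316 were called in the same direction in both, which is 75.3% of the wild-type calls and 81% of the mutant calls, with 0 genes called in opposite directions. Of the 3074 wild-type calls, 3053 had the same sign in mutant nerve, where the median was 1.37 over the wild-type SC genes and -1.74 over the wild-type macrophage genes. The arrays of wild-type and mutant nerve differ, and no control array is shared between these contrasts. Sox2 had a difference of 4.66 in wild-type nerve and 3.76 in mutant nerve (0.90 ± 0.57, adjusted p = 0.616 for wild-type minus mutant), and Ptprz1 one of 4.96 in wild-type nerve and 4.11 in mutant nerve (0.85 ± 0.71, adjusted p = 0.709). Both estimates were smaller in mutant nerve, by less than 2 standard errors. Scn7a was 4.52 in wild-type nerve and 2.80 in mutant nerve (1.72 ± 0.89, adjusted p = 0.549). Among macrophage genes Csf1r was -4.96 in wild-type nerve and -5.04 in mutant nerve (0.08 ± 0.24, adjusted p = 0.935), Il1b -5.49 in wild-type nerve and -5.95 in mutant nerve (0.46 ± 0.62, adjusted p = 0.832) and Retnla -7.41 in wild-type nerve and -6.63 in mutant nerve (-0.78 ± 0.39, adjusted p = 0.536). Of the ligands and receptors, Csf1 was 2.47 in wild-type nerve and 2.12 in mutant nerve (0.34 ± 0.47, adjusted p = 0.837) and Osmr 3.39 in wild-type nerve and 3.38 in mutant nerve (0.02 ± 0.82, adjusted p = 0.996). All 5 mutant macrophage arrays are labelled batch 1 and all 3 wild-type macrophage arrays batch 2, so for macrophages the genotype and the batch cannot be told apart. A p that misses the threshold does not show that the contrasts are alike.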

How the data were processed

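RNA of sorted SCs and macrophages was read on Affymetrix Mouse Gene 2.0 ST arrays and analysed from the log2 values that the authors deposited, which they made with robust multi-array averaging (RMA) in Affymetrix Expression Console (version 1.3.1.187, per the submitters' processing notes), with probe annotation on mm10. The methods state a ComBat correction of 2 batches, and whether it is in the deposited values was not settled here. RMA pulls arrays that are normalized together to 1 distribution, so changes are relative to it. Array medians were 3.74 to 3.86 at 1 month and 2.92 to 2.97 at 7 months, so the alternative over 21 arrays mixes both levels. The universal control arrays had medians of 3.88 in batch 1 and 3.04 in batch 2. Label batch 2 holds arrays of both ages, so the label batch does not follow these levels. Of 41345 transcript clusters 23521 carried 1 gene, 1820 several and 16004 none, and genes from several were not named. For each of 22180 genes the cluster with the highest mean over the 6 arrays was kept, and 21994 genes were matched to RefSeq (GRCm38.p6) by Entrez identifier, 16990 with a promoter window.

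The SC and macrophage groups were compared with limma (version 3.58.1, R 4.3.3) with lmFit and eBayes and Benjamini-Hochberg adjustment over all genes, with 4 residual degrees of freedom, and genes were called where the adjusted p was below 0.05 and the change more than 2-fold, as in the methods. The difference between wild-type and mutant nerve was fitted over 14 arrays with 10 residual degrees of freedom. The number of arrays limits the precision. The code was tested on simulated data. Named genes are the 15 with the largest difference in each direction among those called whose arrays did not overlap, the 4 called members of each list with the largest difference, every member of the transcription factor lists, the members of the ligand and receptor pairs, the sorting markers and Nf1, which gave 268 genes, and 121 further genes were named after their values were seen. The members, lists, pairs and letter strings were chosen with earlier results of these data known. Alternatives covered the set of arrays, the label batch, centring and quantile normalization of the arrays, the filter on low values, the choice of cluster, the variance model, the thresholds and each array left out. The comparison of SC 1 with macrophage 4 was added after the data were seen. Columns of the series that hold 7-month-old cells and universal control RNA entered only the alternative over 21 arrays or no fit.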

Additional observations from a re-analysis of the deposited data

How the results depend on the processing

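No paired analysis was possible because the SC arrays (1, 2, 3) and the macrophage arrays (4, 5, 6) share no replicate number. Against 1961 genes higher in SCs and 1113 higher in macrophages, a test against a fold of 2 (limma treat) gave 759 and 469, a fold change above 4 gave 660 and 411, and dropping the fold minimum gave 2941 and 2080. The classes present in a cell type alone held 127 SC genes and 88 macrophage genes at the lower quartile of the genes kept, 383 and 345 at their median, and 79 and 213 at 3.1 on every array. Leaving out each array in turn gave 1882 to 1994 SC genes and 1088 to 1149 macrophage genes, and 0 genes each time for the difference between wild-type and mutant nerve. The pairs ranged from 7 to 12 with both members higher in SCs, from 3 to 4 with both higher in macrophages, from 3 to 4 with an SC ligand and a macrophage receptor, and from 4 to 5 with a macrophage ligand and an SC receptor. An adjusted p under 0.01 gave 1756 and 995, the label batch as a term 1923 and 1080, and quantile normalization 1912 and 1137. Centring each array on its median gave 2216 and 987, so that the SC share of the calls was 69.2% instead of 63.8%, and moved the median of all genes to 0.04. Of 290 called genes named by the rule or in the text, 0 changed direction under these alternatives, 16 lost the call with some array left out and 24 moved by over 1.5 times in fold. Values near the floor of the arrays have little order, which limits the smallest differences and the quartile classes.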

Other observations

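The genes in this section were singled out after their values were seen. Several tetraspanning Ms4a genes, a family with many members in myeloid cells, were higher in macrophages beside Ms4a7, and others of the family, such as Ms4a2 (-0.00 ± 0.17), were not called. Ms4a6d had 2.97, 2.62 and 2.99 in SCs, against 8.67, 8.70 and 8.92 in macrophages (59.6-fold, -5.90 ± 0.18, adjusted p = 1.26e-07 by limma), Ms4a6c was 48.1-fold higher, Ms4a4a 45.9-fold, Ms4a6b 19.7-fold (a difference of -4.30 that became -4.95 without SC 2) and Ms4a4c 11.1-fold. These genes are close paralogs, so that probes may share signal. The Slamf receptors, which leukocytes use to recognize each other, included Slamf7 with 3.94, 5.56 and 4.23 in SCs, against 10.87, 10.45 and 10.57 in macrophages (66.3-fold, -6.05 ± 0.36, adjusted p = 2.75e-06), Slamf8 (26.2-fold) and Slamf9 (4.59-fold), in all of which no SC array reached a macrophage array. Il7r, the interleukin 7 receptor best known in lymphocytes, had 2.29, 3.68 and 3.54 in SCs, against 10.02, 9.57 and 9.35 in macrophages (89.0-fold, -6.48 ± 0.35, adjusted p = 1.49e-06), while Cd3e, which defines T cells, had 3.13, 3.47 and 3.39 in SCs, against 3.21, 3.53 and 3.51 in macrophages. Of 11 lymphocyte markers, 1 was called, Cd4 (-1.58), which was higher in macrophages, and 0 were higher in SCs. The shares over all genes were 5.02% higher in macrophages and 8.84% higher in SCs. Nckap1l, a hematopoietic actin regulator, was 61.0-fold higher in macrophages.

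Ifi209, an interferon-induced gene, had 1.69, 4.97 and 3.48 in SCs, against 9.05, 10.17 and 9.76 in macrophages (77.8-fold, -6.28 ± 0.66, adjusted p = 8.04e-05), lowest on SC 1, with a difference of -5.44 without SC 1 and -7.08 without SC 2, and Oas1g was 49.9-fold higher with even groups, whereas Cxcl10 and Cxcl9, also induced by interferon, were not called, and Cxcl9 had 6.93, 9.99 and 6.93 in SCs, against 7.18, 9.47 and 8.97 in macrophages. Glycam1, a mucin of lymph node venules and of mammary gland, had 4.59, 12.18 and 8.50 in SCs, against 4.43, 10.47 and 7.02 in macrophages, and Svs4, a seminal vesicle protein, 3.23, 11.40 and 8.70 in SCs, against 2.74, 10.34 and 11.54 in macrophages. Both were low on SC 1 and macrophage 4 and high on SC 2 and macrophage 5, and neither differed between cell types by the test.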
